A study of Homo sapiens with 9 samples.

Results

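Chromatin binding of the zinc finger protein ZNF395 was examined at the genes of the MYC and MAX network in renal carcinoma cells. The 8 genes were MYC, MAX, MXD1, MXI1, MNT, MXD4, MGA and MLX, and every peak of the 5 peak lists with at least 1 base within 25 kb of their hg19 transcription start site was taken: 54 of the 52875 peaks of all lists. In order, the 8 start sites were at position 128748315 of chromosome 8, 65569227 of chromosome 14, 70142173 of chromosome 2, 111967363 of chromosome 10, 2304258 of chromosome 17, 2263739 of chromosome 4, 41952610 of chromosome 15 and 40719078 of chromosome 17. The rule uses positions and no peak values, and it was made with earlier results of these data known.

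The data are chromatin immunoprecipitation followed by sequencing (ChIP-seq) in 786-O and A498, established lines of clear cell renal cell carcinoma, both of which lack a functional VHL gene. One pair of libraries came from 786-O and A498 cells with an eGFP tag inserted at ZNF395, precipitated with a GFP antibody. A MYC antibody was used on parental 786-O cells, and the tagged libraries were set against GFP precipitations of parental 786-O and parental A498 cells, which carry no tag. There were 9 samples, of which 4 were inputs without a peak list here, and each group was 1 library. Whether the tagged cells were 1 clone or a pool is not given in the labels. Groups follow the sample titles. In other label fields the samples titled A498 carry 786-O as the line, and the sample titled MYC names P300 as the target while its antibody field names c-Myc.

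MYC is a basic helix-loop-helix leucine zipper protein that binds DNA as a dimer with MAX, mostly at E-boxes of the form CACGTG, and activates genes of growth and biosynthesis. The MXD proteins and MNT dimerise with MAX at the same kind of site and recruit SIN3 corepressors, so that they oppose MYC. MGA also pairs with MAX and carries a second DNA-binding domain of the T-box type, and MLX is a MAX-like partner for the glucose-sensing factors MLXIP and MLXIPL and for some of the repressors. MYC activity is a known feature of clear cell renal carcinoma, and MXI1 is a known target of hypoxia-inducible factors.

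The sequences of 4 start regions are shown because they differ in the motif that MYC and MAX read: MNT, MXD4 and MLX were the network genes with a CACGTG motif in the 250 bases before a listed start, and MXD1 had the strongest MYC peak at a start but no such motif. They are from RefSeq (GRCh38.p14), 5′ to 3′, and end at the base before the listed start. Capitals mark CACGTG in the first 3 and the wider form CANNTG in MXD1.
MNT, chr17:2401061-2401310, minus strand: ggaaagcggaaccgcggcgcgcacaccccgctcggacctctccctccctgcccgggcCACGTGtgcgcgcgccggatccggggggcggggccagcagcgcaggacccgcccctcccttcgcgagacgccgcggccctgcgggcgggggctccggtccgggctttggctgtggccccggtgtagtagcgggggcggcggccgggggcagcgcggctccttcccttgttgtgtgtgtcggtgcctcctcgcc
MXD4, chr4:2262110-2262359, minus strand: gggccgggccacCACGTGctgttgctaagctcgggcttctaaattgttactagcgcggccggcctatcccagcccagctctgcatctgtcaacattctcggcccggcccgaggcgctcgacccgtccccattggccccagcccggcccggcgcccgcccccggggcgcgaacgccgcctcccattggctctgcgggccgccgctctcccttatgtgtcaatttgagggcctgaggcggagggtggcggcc
MLX, chr17:42566850-42567099, plus strand: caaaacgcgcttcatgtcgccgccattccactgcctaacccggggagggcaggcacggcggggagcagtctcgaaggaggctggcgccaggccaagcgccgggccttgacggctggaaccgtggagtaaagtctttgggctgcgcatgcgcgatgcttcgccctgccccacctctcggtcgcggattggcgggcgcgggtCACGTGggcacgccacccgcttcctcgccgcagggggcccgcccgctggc
MXD1, chr2:69914859-69915108, plus strand: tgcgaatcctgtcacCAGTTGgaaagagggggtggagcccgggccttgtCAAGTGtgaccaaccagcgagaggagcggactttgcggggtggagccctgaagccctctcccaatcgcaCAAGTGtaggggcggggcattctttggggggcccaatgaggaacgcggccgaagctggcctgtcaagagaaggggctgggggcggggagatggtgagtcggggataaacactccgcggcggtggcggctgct
The motif began at position -193 in MNT, -238 in MXD4 and -50 in MLX, counted back from the listed start. The table used held 12 starts for 7 of the 8 genes, all but MYC, and 3 of these 12 windows held CACGTG, against 6.34% of 35116 windows of the same length over all genes. The wider form CANNTG, which includes CACGTG, was in 6 of the 12, against 61.8% of all windows. Both motifs read the same on either strand. The windows are on another build than the peaks, and listed starts need not be the hg19 starts used for the peaks, so a motif is a description of the gene and was not placed inside a peak.

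In tagged 786-O cells all 8 genes had a ZNF395-eGFP peak within 25 kb and all 8 had one within 1 kb of the start. All 8 had a MYC peak within 25 kb in parental 786-O, and 7 had one within 1 kb. In tagged A498 cells, 5 of the 8 genes had a peak (MYC, MXD1, MXI1, MNT and MLX) and 3 had one within 1 kb of the start (MYC, MXD1 and MNT). The GFP background of parental cells was called at 1 gene, MYC, in both lines. The numbers of peaks were 25 for tagged 786-O, 9 for tagged A498, 16 for MYC, 3 for parental 786-O and 1 for parental A498, from lists of 20034, 7718, 20199, 3361 and 1563 peaks. Among all 50 kb windows of the genome span the lists cover, 21.7% held a tagged 786-O peak, 10.5% a tagged A498 peak, 21.1% a MYC peak, 4.12% a parental 786-O peak and 1.32% a parental A498 peak. These windows are not centred on start sites. Among windows with a MYC peak, 77.3% held a tagged 786-O peak, 29% a tagged A498 peak, 16% a parental 786-O peak and 3% a parental A498 peak. In 2 kb windows, the size of the start-site window, the shares with a peak were 1.57%, 0.571%, 1.61%, 0.223% and 0.0846% for tagged 786-O, tagged A498, MYC, parental 786-O and parental A498. These windows also tile the whole span and are not centred on start sites. No share over the start sites of all genes was computed, so whether the start-site counts differ from those of other genes is not known. Among 2 kb windows with a MYC peak, the shares with a peak were 62.9% for tagged 786-O, 17.6% for tagged A498, 9.38% for parental 786-O and 1.29% for parental A498. With 1 library per group none of these counts has a replicate check, and the depth behind single peaks is unknown because the lists give no reads.

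**Figure D1:**
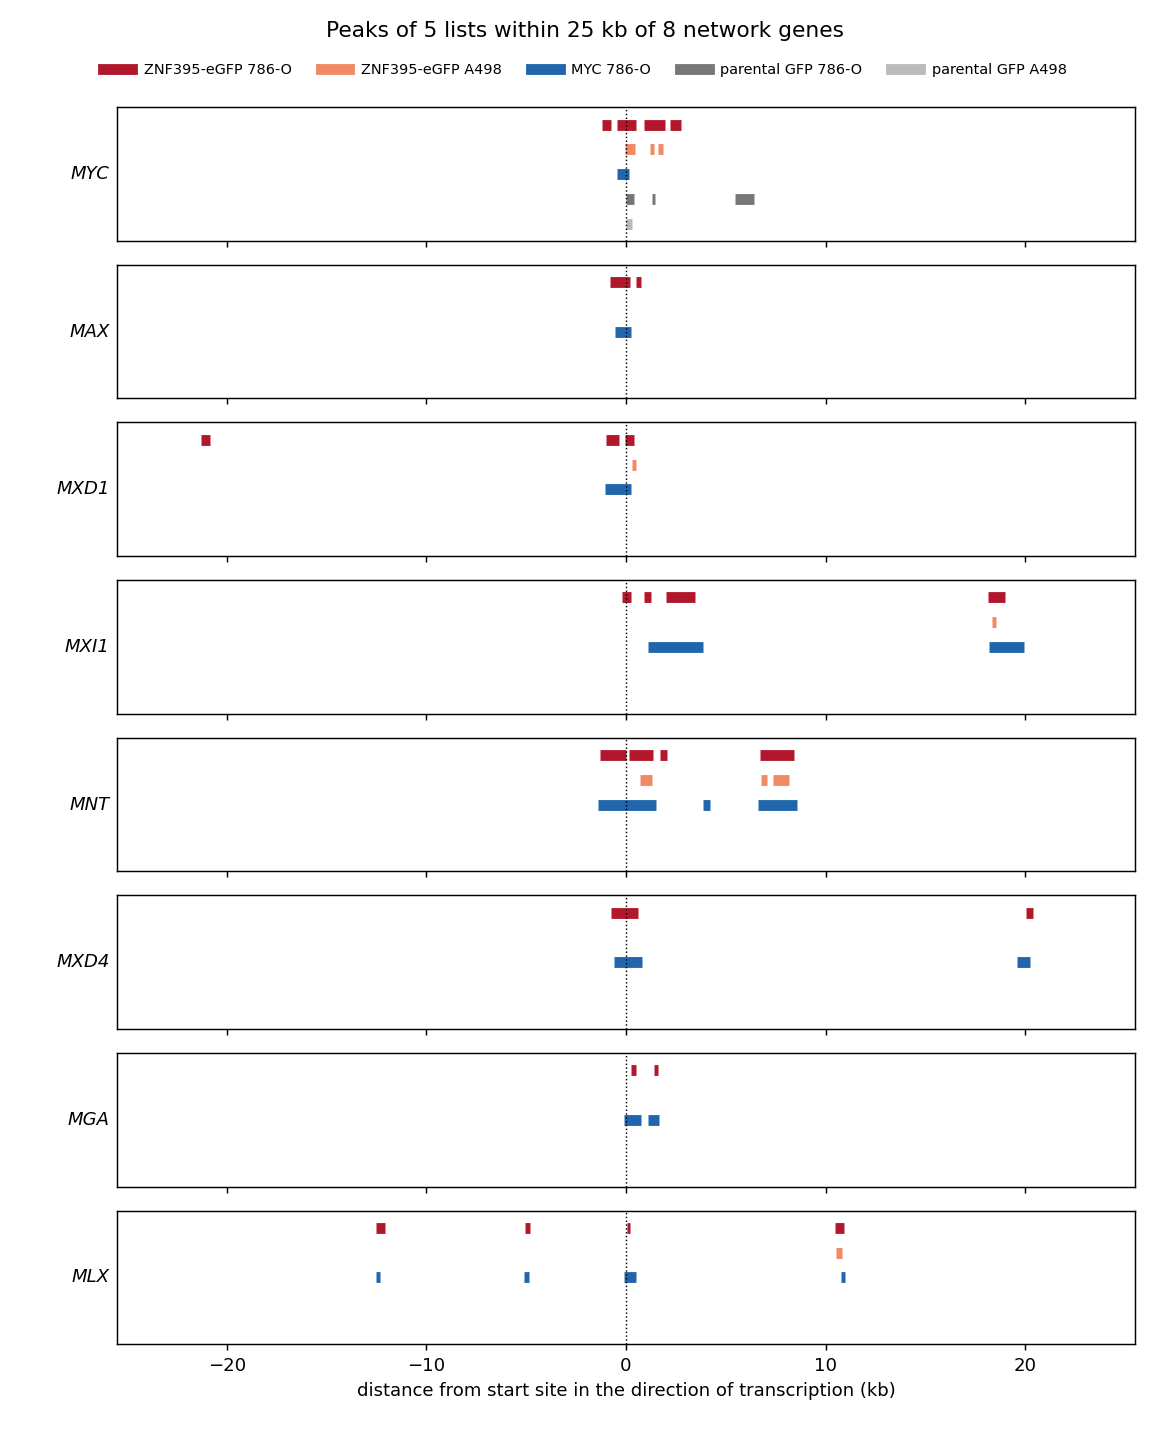
Peaks within 25 kb of the start site of each gene, by distance in kb in the direction of transcription, with one lane per list and bars drawn to the width of each peak. ZNF395-eGFP peaks of 786-O lie within 1 kb of all 8 starts and cover 5 of them, and the parental lanes are empty except at MYC.

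MYC itself stood apart from the other 7 genes in 2 ways: it was the gene with the highest-ranked ZNF395-eGFP peak in 786-O, and it was the one gene with parental GFP peaks. The tagged 786-O peak over its start, at chr8:128747865-128748838, ran from -450 to 523 bp of the start and had a score of 82.4, rank 553 of 20034. The score is the authors' own value per peak, taken as −log10 of a p-value or q-value, and rank 1 is the highest score of a list. A second tagged peak at 890 to 1979 bp past the start, chr8:128749205-128750294, had a score of 54.1 and rank 1507. They were flanked by weaker peaks at -1177 to -728 bp and 2208 to 2783 bp, with ranks of 14764 and 14769. Thus 4 tagged peaks lay within 25 kb of the start. MXI1, MNT and MLX also had 4 each, and 4 or more were found in 1.18% of all 50 kb windows and in 5.27% of those with a MYC peak.

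Parental 786-O cells had a GFP peak from 17 to 421 bp past the MYC start, chr8:128748332-128748736, with rank 308 of 3361, inside the strongest tagged peak. Their peak at 1306 to 1461 bp, rank 2068, lay inside the second tagged peak. Both of the strong tagged peaks of 786-O at MYC therefore lay at sites that the antibody also precipitated without a tag, and the tagged-only peaks there were the 2 weak flanking ones. A tagged-only peak is one that no parental peak of the same line overlaps by 1 bp or more. The highest-ranked parental 786-O peak at the gene was farther in, at 5449 to 6394 bp, chr8:128753764-128754709, with rank 222, and no tagged or MYC peak overlapped it. It was 946 bp wide, a width exceeded by 1.4% of the parental 786-O peaks.

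In A498 the same locus had 3 tagged peaks and 1 parental peak. The tagged peak over the start, chr8:128748258-128748769, had rank 517 of 7718 and overlapped the parental A498 peak at 23 to 291 bp, which had rank 504 of 1563. The other tagged A498 peaks, at 1196 to 1399 bp (rank 3991) and 1616 to 1842 bp (rank 601), had no parental A498 peak, although the first overlapped the parental 786-O peak there. Of all 50 kb windows, 0.66% held parental peaks in both lines and 0.348% held a peak in every one of the 5 lists, as the MYC window did. Among windows with a MYC peak, 1.65% held a peak in every list.

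The MYC antibody gave its own gene a weak peak. It ran from -471 to 152 bp, chr8:128747844-128748467, with a score of 10.6 and rank 13681 of 20199. The tagged 786-O peak it overlapped was in the upper 2.76% of its list, and the MYC peak in the upper 67.7% of its own. It covered 61.9% of that tagged peak and overlapped the parental peaks at the start in both lines. MYC was 1 of 2 genes in which the best MYC peak was in the lower 50% of the MYC list. The other was MLX.

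MAX, the obligate partner of MYC, had one peak of each factor over its start in 786-O. The ZNF395-eGFP peak, chr14:65569005-65570040, ran from -813 to 222 bp with a score of 25.1 and rank 5377 of 20034. The MYC peak, chr14:65568962-65569778, ran from -551 to 265 bp with a score of 43.3 and rank 3787 of 20199. They shared 774 bp, and their midpoints were 152.5 bp apart. A small tagged peak followed at 502 to 755 bp (rank 14081), 237 bp from the MYC peak. No peak was listed at MAX in tagged A498 or in either parental library.

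**Figure D2:**
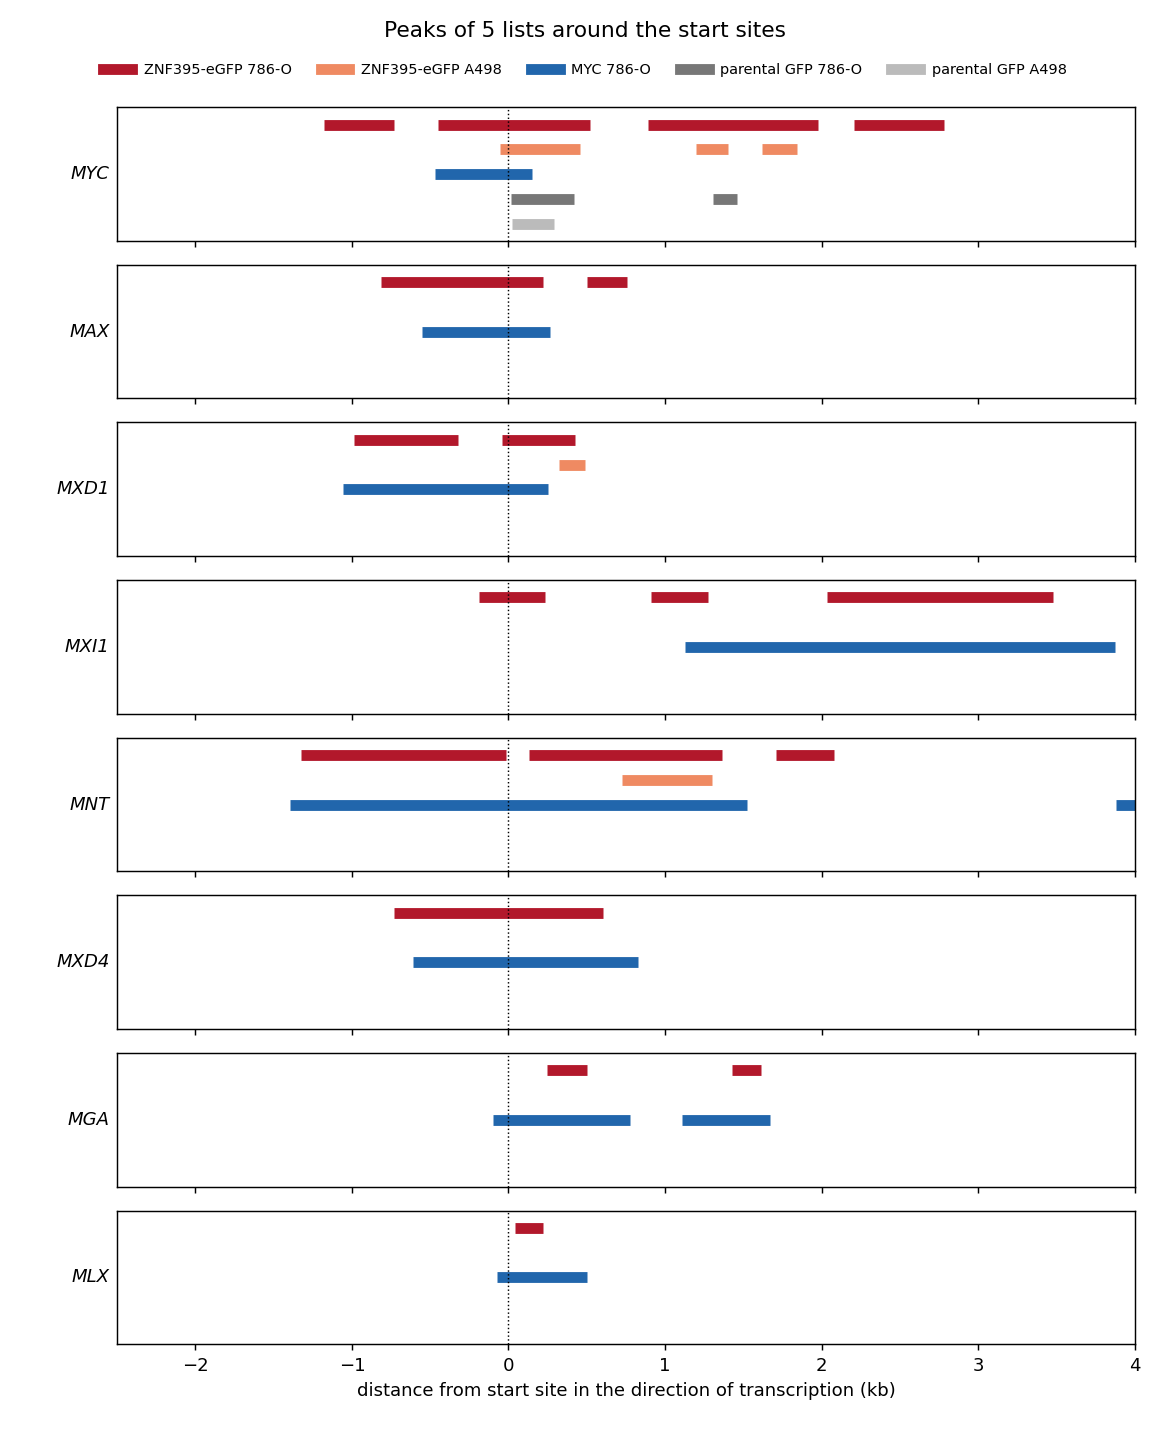
The same peaks between 2.5 kb before and 4 kb after each start, one lane per list, with the distance in kb in the direction of transcription. At MXD1, MXI1 and MNT a single MYC peak overlaps 2 ZNF395-eGFP peaks of 786-O, and at MYC the parental peaks lie under the 2 strong tagged peaks.

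By rank, the 5 highest MYC peaks of the network were at MNT, MXD1 and MXI1, which encode antagonists of MYC. Not all repressive partners ranked so high. The MYC peaks of MXD4 had ranks of 3291 and 3751, close to that of MAX (3787), and MNT also had one of rank 13612. MGA, which also pairs with MAX, had ranks of 3926 and 14322. At MXD1, which encodes the MAX partner first known as MAD1, 2 ZNF395-eGFP peaks of 786-O, both tagged-only, overlapped 1 MYC peak. The first, chr2:70141185-70141848, at -988 to -325 bp, had a score of 61.1 and rank 1179 of 20034. The second, at -42 to 424 bp, covered the start and had rank 11020, and a gap of 282 bp separated them. The MYC peak, chr2:70141116-70142427, ran from -1057 to 254 bp with a score of 202.8 and rank 177 of 20199 and held the whole of the first and 63.6% of the second. The tagged A498 peak, at 324 to 491 bp (rank 1827 of 7718), overlapped the second 786-O peak and lay 70 bp from the MYC peak. A further tagged 786-O peak, at -21275 to -20828 bp (rank 11495), lay on the side of SNRNP27, the neighbouring gene in RefSeq order, and had no MYC peak within 19771 bp.

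MXI1, which encodes a MAX partner of the same repressor group, was the one gene whose start had a ZNF395-eGFP peak but no MYC peak within 1 kb. The tagged 786-O peak over the start ran from -191 to 233 bp (rank 5424), and the nearest MYC peak was 892 bp away. The stronger peaks of both factors were inside the gene. The tagged peak chr10:111969394-111970838, at 2031 to 3475 bp, had a score of 72.0 and rank 808, and lay wholly within a MYC peak at 1125 to 3872 bp, chr10:111968488-111971235, with a score of 104.5 and rank 971. That MYC peak was 2748 bp wide, and 13 of the 20199 MYC peaks were wider. It also touched a weak tagged peak at 908 to 1272 bp (rank 16830). Farther in, a tagged peak at 18147 to 19013 bp (rank 5847) overlapped a MYC peak at 18192 to 19962 bp (rank 1035) and the one tagged A498 peak of the gene, at 18353 to 18556 bp (rank 5168 of 7718). RefSeq lists 3 starts for MXI1, the later ones 2626 and 18391 bases past the first in GRCh38.p14. By these spacings the inner peaks of both factors lie near listed starts of MXI1, if the hg19 start used here is the first and the spacing is the same in both builds, which was not checked.

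At MNT, a broadly expressed repressive MAX partner, peaks of both factors lay at the start and inside the gene. The inner tagged-only 786-O peak, chr17:2295854-2297525, at 6733 to 8404 bp past the start, was 1672 bp wide with a score of 30.1 and rank 4239 of 20034. It lay wholly within a MYC peak, chr17:2295691-2297617, with a score of 279.4 and rank 42 of 20199, and the midpoints were 35.5 bp apart. No other of the 54 peaks had as high a rank in its list as this MYC peak. Both tagged A498 peaks of the inner region, at 7364 to 8180 bp (rank 1592) and 6765 to 7081 bp (rank 3378), lay under the same MYC peak. Around the start, 2 tagged 786-O peaks, at -1323 to -13 bp (rank 4089) and 133 to 1362 bp (rank 7569), left a gap of 145 bp that contained the start itself. The MYC peak that spanned them, chr17:2302734-2305651, had rank 687 and was 2918 bp wide, a width exceeded by 6 of the 20199 MYC peaks. The third tagged A498 peak, at 727 to 1297 bp (rank 1823), lay inside the second of these tagged peaks. One tagged peak, at 1708 to 2079 bp (rank 11878), had no MYC peak, and the MYC peak at 3879 to 4211 bp (rank 13612) had no tagged peak.

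MXD4, another repressive MAX partner, had broad peaks of both factors over its start. The ZNF395-eGFP peak of 786-O, chr4:2263133-2264472, ran from -733 to 606 bp with a score of 21.6 and rank 6405, and the MYC peak, chr4:2262914-2264350, ran from -611 to 825 bp with a score of 43.5 and rank 3751. A second site 20038 to 20408 bp past the start, on the side of HAUS3 in RefSeq order, had a weak tagged peak (rank 15317) under a MYC peak of rank 3291. No A498 or parental peak was listed within 25 kb of MXD4.

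MGA had the weakest ZNF395-eGFP peaks of the network, and MLX the weakest MYC peaks, by best rank within each list. At MGA the tagged 786-O peaks, chr15:41952853-41953112 at 243 to 502 bp and a second at 1430 to 1610 bp, had scores of 4.36 and 9.24 and ranks of 18156 and 12765 of 20034. Each lay wholly inside a MYC peak. The MYC peaks had scores of 41.9 and 9.87 and ranks of 3926 and 14322 of 20199, and no A498 or parental peak was listed there.

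At MLX, 4 tagged 786-O peaks were each matched by a MYC peak. The pair at the start, tagged at 43 to 223 bp, chr17:40719121-40719301 (score 8.68, rank 13307), and MYC at -73 to 502 bp, chr17:40719005-40719580 (score 5.61, rank 18309), were both low in their lists. The strongest tagged peak lay at 10491 to 10948 bp, chr17:40729569-40730026, with rank 6559 in 786-O, and the tagged A498 peak that overlapped it had a score of 19.3 and rank 518 of 7718. This site, on the side of PSMC3IP in RefSeq order, had a MYC peak of rank 18750, in the lowest 10% of its list. Thus the A498 rank at MLX, in the upper 6.71% of the list, came from a site 10546 bp past the start. The remaining pairs, at -12531 and -5053 bp on the side of COASY, had tagged ranks of 9447 and 16359 and MYC ranks of 16847 and 17507.

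**Figure D3:**
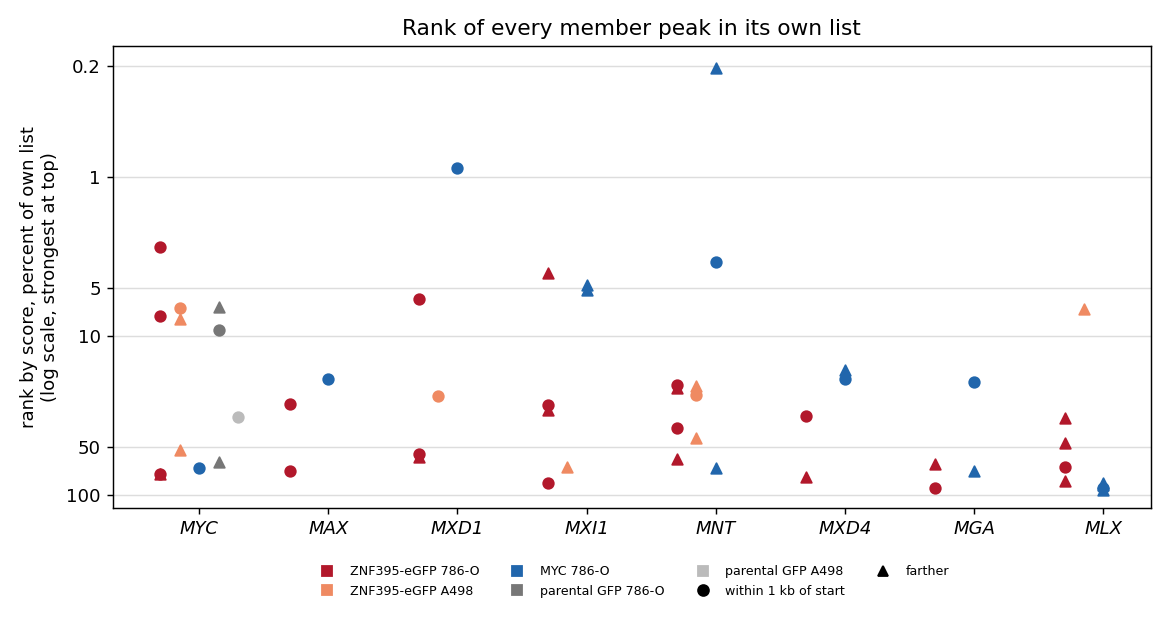
Rank of each of the 54 peaks as a percentage of its own list (log scale, strongest at the top), by gene and list, with circles for peaks within 1 kb of the start and triangles for others. MYC heads the ZNF395-eGFP peaks of 786-O at 2.76% with a peak at a parental GFP site. By an overlap of 1 bp, its best tagged-only peak is at 73.7%. Its MYC peak is at 67.7%, and MNT heads the MYC peaks at 0.208%.

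Ordered by the best rank within 25 kb, the ZNF395-eGFP list of 786-O gave MYC (upper 2.76%), MXI1 (4.03%), MXD1 (5.88%), MNT (20.4%), MAX (26.8%), MXD4 (32%), MLX (32.7%) and MGA (63.7%). The MYC list gave MNT (0.208%), MXD1 (0.876%), MXI1 (4.81%), MXD4 (16.3%), MAX (18.7%), MGA (19.4%), MYC (67.7%) and MLX (83.4%). In tagged A498 cells the order was MYC (6.7%), MLX (6.71%), MNT (20.6%), MXD1 (23.7%) and MXI1 (67%). No spread is known for any of these ranks, so neighbours in an order cannot be told apart. MXD1 and MXI1 were among the first 3 in both 786-O lists, and MYC was first in tagged 786-O and seventh in the MYC list. By an overlap of 1 bp, the first place of MYC in both tagged lists rests on peaks at parental GFP sites. By this rule its best tagged-only peak was at 73.7% in 786-O, lower than the best of any other gene. In A498 it was at 7.79%, behind MLX. With 50% reciprocal overlap, 0 of the 25 tagged 786-O peaks lay at a parental peak, and the MYC peak at 2.76% counted as tagged-only. With midpoints within 200 bp, 2 of the 25 lay at one. In A498, 1 of the 9 tagged peaks did so by each of these rules. Of the 25 tagged 786-O peaks, 13 were in the upper 50% of their list and 4 in the upper 10%. Of the 9 tagged A498 peaks, 7 were in the upper 50% and 3 in the upper 10%, and of the 16 MYC peaks, 9 and 5. By the lists in which a start had a peak within 1 kb, MAX, MXD4, MGA and MLX were alike in 5 of 5 lists, as were MXD1 and MNT, and MYC was like no other gene in more than 3.

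Tagged 786-O peaks covered the start itself in 5 of 8 genes (MYC, MAX, MXD1, MXI1 and MXD4), and MYC peaks in 7 of 8, all but MXI1. Of all single bases of the span, tagged 786-O peaks covered 0.357% and MYC peaks 0.366%, and no share over start sites was computed. At MNT, MGA and MLX the nearest tagged peak was 13, 243 and 43 bp from the start. The median width near the genes was 461 bp for tagged 786-O, against 393 bp in the whole list, and 256 bp for tagged A498, against 245 bp. The MYC peaks had a median width of 748.5 bp, against 425 bp in their list.

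By an overlap of 1 bp, ZNF395-eGFP and MYC peaks met at each of the 8 genes in 786-O, though how often depended on the overlap rule. A MYC peak was present at 17 of the 23 tagged-only 786-O peaks (73.9%, exact 95% binomial interval 51.6 to 89.8), against 58.8% of the 17596 in the whole list. Conversely, 14 of the 16 MYC peaks (87.5%, 61.7 to 98.4) had a tagged-only partner, against 51.8% of the 20199 in the list. The interval of the first share holds the share of the list and that of the second does not, but peaks near the same gene are not independent and the intervals cover counting error only. The MYC peaks near the genes were also wider than those of the list (median 748.5 against 425 bp), and their windows are centred on starts. The part of width or of nearness to a start in these shares was not tested. Stricter rules were applied to the parental subtraction as well. With 50% reciprocal overlap all 25 tagged 786-O peaks then counted as tagged-only, and the pair at the MYC start was among the overlaps. The shares were 28% (12.1 to 49.4) of tagged-only peaks, against 40.5% of the list, and 43.8% (19.8 to 70.1) of MYC peaks, against 38.7%. With midpoints within 200 bp these shares were 39.1% (19.7 to 61.5), against 45%, and 56.2% (29.9 to 80.2), against 40.6%. All 4 of these intervals hold the share of the list. By the 1 bp rule, the MYC peaks without a tagged-only partner were the one at 3879 bp in MNT and the one at the MYC start. The tagged partner of the latter lay at a parental peak. With that partner counted, 15 of 16 MYC peaks (93.8%) had a tagged peak, against 60.9% of the list. At MXD1, MXI1 and MNT a single MYC peak overlapped 2 tagged-only peaks by at least 1 bp, and at MNT it held both whole. These 3 were of 16 MYC peaks (18.8%, 4.05 to 45.6), against 1.88% of the list. They were 1312, 2748 and 2918 bp wide, against a list median of 425 bp, and the part of width in these shares was not tested. Over the 17 overlapping pairs the midpoints were a median of 170.5 bp apart, against 108.5 bp over the 10855 pairs of the whole lists. In 8 of the 17 (47.1%) the tagged peak lay wholly inside the MYC peak, against 26.8% of the pairs of the lists. Pairs at the same gene are not independent, and the part of MYC peak width in this share was not tested.

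The 6 tagged-only peaks without a MYC peak were the flanking pair at MYC, the downstream peak at MAX, the distant one at MXD1, the start peak of MXI1 and one at MNT. The 17 with a MYC peak ranked between 808 and 18156, with a median of 7569, and these 6 between 5424 and 14769, with a median of 12980. The 2 tagged peaks at parental sites, both at MYC, ranked 553 and 1507.

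**Figure D4:**
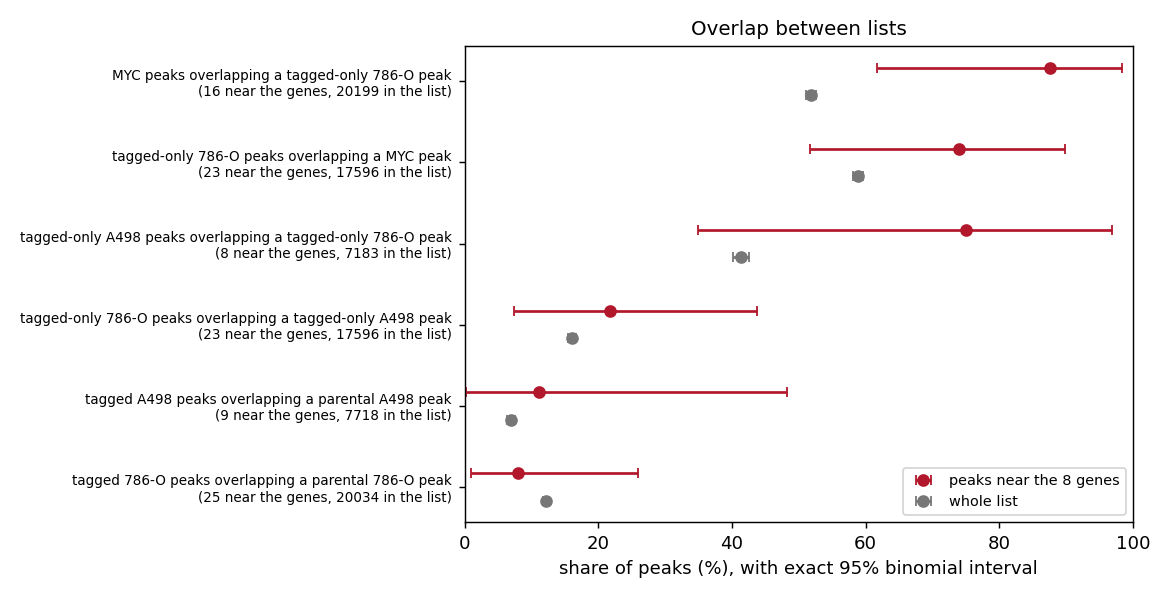
Share of peaks of one list that overlap a peak of another, for peaks near the 8 genes (red) and for the whole list (grey), with exact 95% binomial intervals. By an overlap of 1 bp, the MYC peaks near the genes lie at 87.5% and the list at 51.8%, while the intervals of the shares with parental peaks hold the list's value.

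All 9 tagged A498 peaks had a tagged partner in 786-O, against 56.6% of the 7718 A498 peaks, and the lower bound of the exact interval was 66.4%. After subtraction of parental sites in each line, 6 of 8 A498 peaks (75%, 34.9 to 96.8) had a 786-O partner, against 41.3% of the list. The other 2 were at MYC, where the 786-O peak lay at a parental site. These shares are by 1 bp, and peaks near the same gene are not independent. The share after subtraction was 12.5% with 50% reciprocal overlap, against 15.5% of the list. With midpoints within 200 bp it was 25%, against 32.6%. In the other direction and by 1 bp, 5 of 23 peaks of 786-O (21.7%, 7.46 to 43.7) had an A498 partner, against 16.1% of the list. These were at MXD1, MXI1, MLX and, as a pair, MNT. The A498 peaks at MXI1, MNT and MLX lay at 786-O MYC peaks, so that 5 of 8 tagged-only A498 peaks did so (62.5%, 24.5 to 91.5), against 48% of the list.

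Sites of the parental background took 2 of the 25 tagged 786-O peaks (8%, 0.984 to 26), against 12.2% of the list, and 1 of the 9 tagged A498 peaks (11.1%, 0.281 to 48.2), against 6.93%. Both intervals hold the share of the list, and all 3 peaks were at MYC. Without MYC the counts were 0 of 21 and 0 of 6, with upper bounds of 16.1% and 45.9%. The omission of MYC was chosen after its values were seen.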

How the data were processed

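ChIP-seq peaks of 5 libraries were used. The deposited lists give position, name and score of each peak, on hg19. BWA and MACS2 are named per the submitters' processing notes, with no versions or settings. Peak names in the deposited files state that each library was called against 1 control, and the MYC and parental 786-O lists share theirs. The authors' score was taken to be −log10 of a p-value or q-value, since each list begins just above 2, and was used only for ranks within a list. Titles gave the groups, with 1 library each, so no test across replicates and no p-value is given. The labels state an average of 30 to 50 M reads per library.

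Starts came from the given rule, strands from RefSeq (for MYC, from general knowledge), and a rank of 1 is the highest score. Overlap means at least 1 bp. Peaks were named as the nearest to each start and the highest of each list, with others added after their values were seen. Members and lists were chosen with earlier results of these data known. Windows tile chromosomes 1 to 22 and X. Other network genes that had been listed were not analysed here, because no hg19 table of starts was used. Python 3.11.15, pandas 2.3.3 and scipy 1.17.1 were used, and the overlap code was tested on simulated data and against bedtools 2.31.1. Alternatives covered the windows, the overlap rule, score limits and the subtraction of parental peaks.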

Additional observations from a re-analysis of the deposited data

How the results depend on the processing

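Of 120 values under alternatives, 96 stayed within 1.5 times the count or within the 95% interval of the share reported, and 24 moved. Both 786-O lists and A498 lost most genes when all lists were limited to the length of the shortest. ZNF395-eGFP peaks were then found at 3 genes in 786-O (4 peaks, 2 genes at the start) and 2 in A498 (3 peaks, 1 gene at the start), and MYC peaks at 3 genes (5 peaks, 2 at the start), while the parental lists still gave MYC alone. In the upper 50% of scores 13 tagged 786-O and 9 MYC peaks were left, and within 10 kb 3 genes had a tagged A498 peak. Each alternative overlap rule was applied to the parental subtraction as well. By 50% reciprocal overlap all 25 tagged 786-O peaks therefore counted as tagged-only. With 50% reciprocal overlap, 0% of tagged 786-O peaks lay at a parental peak, 28% of tagged-only 786-O peaks at a MYC peak, 43.8% of MYC peaks at a tagged-only peak, 12.5% of tagged-only A498 peaks at a 786-O one and 4% of tagged-only 786-O peaks at an A498 one; the whole lists gave 3.8%, 40.5%, 38.7%, 15.5% and 5.93%. With midpoints within 200 bp, 39.1% of tagged-only 786-O peaks, 56.2% of MYC peaks and 25% of A498 peaks had their partner, against 45%, 40.6% and 32.6% of the lists. Of A498 peaks, 100% had a 786-O partner without parental subtraction and 100% without the MYC gene, where the shares at parental peaks were 0% in both lines. Shorter lists and stricter overlap lower counts by construction, except that stricter overlap can leave more peaks tagged-only. For other moves the cause was not tested. Depth is unknown, since no reads per peak are given. No paired analysis was possible because each group is 1 library and no test was run.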
